A study of Mus musculus with 11 samples.

Results

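The lysine and asparagine tRNAs of mouse embryonic fibroblasts were followed across cells that carried empty vector, wild-type METTL1 with WDR4, or a mutant METTL1 with WDR4. They were chosen by name, as all entries of the abundance tables whose name begins with Lys or Asn. This gave 34 tRNA entries, beside 267 entries of other tRNAs in the same tables. Of the 34, 22 have the lysine anticodon CTT, 5 the lysine anticodon TTT and 7 the asparagine anticodon GTT. An entry is named by its amino acid, its anticodon in DNA letters and a number given by the authors, as in LysCTT45.

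The cells were wild-type (MEF Wt) fibroblasts expressing SV40 T antigen, into which pBabe vectors had been stably introduced. Each construct (Empty vector Control, METTL1-Wt +WDR4 and METTL1-Mut +WDR4) was represented by 2 input libraries, made from small RNA treated with AlkB demethylases and left uncleaved. The labels call the transduced cells stable clones kept under puromycin and G418, describe no treatment protocol for the mutant and do not say which change it carries. The 5 cleaved libraries of the series, which would report the methylated base itself, were not used here.

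METTL1 and WDR4 form the complex that writes N7-methylguanosine (m7G) into the variable loop of some tRNAs, and lysine and asparagine tRNAs are among them. These families together read the codon box that begins with AA. LysTTT pairs with the lysine codon AAA, LysCTT with AAG, and AsnGTT with the asparagine codons AAC and AAT. They also differ in their wobble base: tRNA-Lys-TTT carries a thiolated uridine there, and tRNA-Asn carries queuosine in cells supplied with its precursor.

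Abundance is given in RPM, the reads of an entry per 1000000 tRNA reads, so each value is a share of the tRNA reads, and a change in total tRNA cannot be seen. Fewer cells with a tRNA and less of it per cell cannot be told apart in such bulk samples. The RPM steps imply 5405585 to 16003708 reads per library, an overestimate of depth if a read could count towards more than 1 entry. The median replicate SD of all entries, on the log2(RPM + 1) scale, was 0.08 with empty vector, 0.06 with wild-type and 0.15 with mutant METTL1. For the 34 lysine and asparagine entries it was 0.08, 0.07 and 0.15. The labels do not say whether replicates were separate cultures, so p-values cover the spread between libraries alone, and it may be technical. The tables hold tRNA entries only, so neither METTL1 nor the markers of fibroblasts could be checked.

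LysCTT was the most abundant of these families in every library, followed by AsnGTT and LysTTT. Summed over its entries, LysCTT stood at 29434 and 26821 RPM in empty vector libraries 1 and 2. AsnGTT stood at 8800 and 9032 RPM, and LysTTT at 2886 and 2864 RPM. By mean summed RPM over the 6 libraries the families ranked 9, 29 and 41 among the 54 anticodon families of the tables. Length differs little between them: RefSeq (GRCm38.p6) annotates every tRNA-Lys gene of these anticodons at 73 bases and every tRNA-Asn-GTT gene at 74. RefSeq lists 24 LysCTT, 2 LysTTT and 13 AsnGTT genes, and the entries were not matched to individual genes.

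Within each family a few entries held nearly all of the reads. LysCTT45, LysCTT25, LysCTT82 and LysCTT27 made up 95.0% to 96.1% of LysCTT RPM, depending on the library. The lowest of these 4 had a mean of 5706 RPM over the 6 libraries and the next entry, LysCTT104, a mean of 423 RPM. LysTTT28 held 86.1% to 90.1% of LysTTT RPM, and AsnGTT475 with AsnGTT569 held 97.0% to 98.0% of AsnGTT RPM. At the other end, 9 of the 34 entries had a mean under 10 RPM. The lowest was LysCTT14, with 0.375 and 0.185 RPM in empty vector, which the RPM steps put at 6 reads and 1 read.

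**Figure D1:**
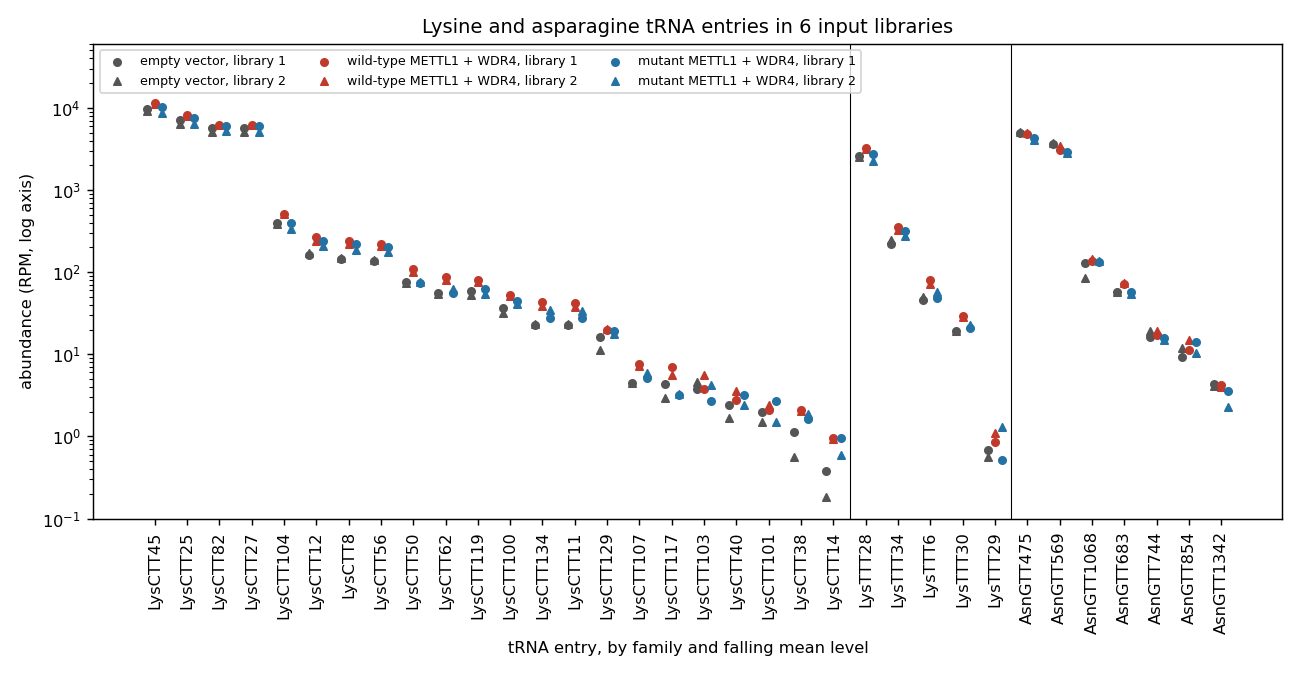
Abundance in RPM (log axis) of the 34 lysine and asparagine entries in the 6 input libraries, with colour for the construct and circle or triangle for library 1 or 2. The 4 leading LysCTT entries lie at 5082 RPM or above in each library, and most LysCTT and LysTTT points for wild-type METTL1 lie above those for empty vector.

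The first comparison asked whether these tRNAs differed between cells given wild-type METTL1 with WDR4 and cells given empty vector. Most lysine entries rose: 18 of 22 LysCTT, 4 of 5 LysTTT and 2 of 7 AsnGTT entries were higher, and 0 of the 34 were lower. The threshold was an adjusted p under 0.05 in limma, with Benjamini-Hochberg adjustment over all entries of the tables. Of those, 30.2% were called higher and 7.31% lower. The median log2 fold change was 0.55 in LysCTT, 0.55 in LysTTT and 0.03 in AsnGTT, against 0.16 over all entries, and the AsnGTT median turned to −0.18 when libraries were centred on the families without m7G. Families are put with or without m7G from general knowledge of tRNA modification, not from a measurement in these libraries. Counting libraries alone, 26 of 27 lysine entries were higher in both wild-type libraries than in both empty vector libraries, which held for 49.5% of all entries. LysCTT103 was the lysine entry whose groups overlapped. In the authors' deposited table, 13 of 22 LysCTT, 4 of 5 LysTTT and 1 of 7 AsnGTT entries had an unadjusted p under 0.05 on the higher side, as had 22.9% of all its entries, and 0 of the 34 did on the lower side, against 5.98% of all.

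The leading lysine entry, LysCTT45, had 9813 and 9127 RPM in empty vector and 11531 and 11145 RPM with wild-type METTL1. Both wild-type libraries lay above both controls (log2 fold change 0.26, SE 0.07, BH-adjusted p = 0.0046 by limma). LysCTT25 went from 7169 and 6388 RPM to 8242 and 7994 RPM (log2 fold change 0.26, SE 0.07, BH-adjusted p = 0.0092 by limma). LysCTT82 and LysCTT27 differed by at most 0.0973% in any library and may not be separate measurements. LysCTT82 had 5656 and 5086 RPM in empty vector and 6250 and 6134 RPM with wild-type METTL1 (log2 fold change 0.21, SE 0.08, BH-adjusted p = 0.040 by limma). The calls of these 4 entries were each lost without the variance trend. They were also lost with a common fit of all 6 libraries and under both centrings of the libraries. A fit with a library left out takes its spread only from the group that keeps 2 libraries, so effect sizes are given for it. The log2 fold change then ranged from 0.21 to 0.31 for LysCTT45 and from 0.18 to 0.35 for LysCTT25. For LysCTT82 and LysCTT27 it ranged from 0.13 to 0.28. LysCTT82 and LysCTT27 further lost their calls with a pseudocount of 10 and with a minimum mean of 100 RPM.

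Rises were larger among lysine entries of middling or low level than among the abundant ones. LysCTT134 had 22.8 and 23.5 RPM in empty vector and 42.9 and 38.7 RPM with wild-type METTL1 (log2 fold change 0.79, SE 0.13, BH-adjusted p = 9.4e-05 by limma). Its near-copy in values, LysCTT11, stood within 5% of it in every library (log2 fold change 0.78). The scarce LysCTT38 had 1.12 and 0.555 RPM in empty vector, which the RPM steps put at 18 and 3 reads. With wild-type METTL1 it had 2.09 and 2.03 RPM (log2 fold change 0.75, SE 0.23, BH-adjusted p = 0.015 by limma). On the log2(RPM + 1) scale, which understates changes of scarce entries, this was of similar size. The ratio of mean RPM was 2.45 for LysCTT38 and 1.76 for LysCTT134. The LysCTT38 call was lost under both centrings, and its log2 fold change ranged from 0.53 to 0.98 with a library left out. LysCTT8 rose from 144 and 151 RPM to 238 and 220 RPM (log2 fold change 0.63, SE 0.11, BH-adjusted p = 9.5e-05 by limma). LysCTT12, LysCTT8, LysCTT56, LysCTT62, LysCTT100, LysCTT134 and LysCTT11 kept their call in all alternative limma fits that held them, as did LysTTT6. All 14 lysine entries with a mean of 10 to 1000 RPM rose, with a median log2 fold change of 0.59. The 5 entries above 1000 RPM also rose, by a median of 0.26 on that scale. The 8 lysine entries under 10 RPM had a median of 0.53, lowered by the pseudocount of 1, with 3 called higher.

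A dependence on level was also seen over the tables as a whole. The 109 entries with a mean of 10 to 1000 RPM had a median log2 fold change of 0.37, with 62 higher and 3 lower. The 134 entries above 1000 RPM had a median of 0.04, with 22 higher and 18 lower. The 58 entries under 10 RPM, whose changes the scale likewise understates, had a median of 0.26, with 7 higher and 1 lower. In each range the lysine median lay above that of all entries.

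Among the AAA-reading LysTTT entries the leading member also rose. LysTTT28 had 2600 and 2551 RPM in empty vector and 3263 and 3183 RPM with wild-type METTL1 (log2 fold change 0.32, SE 0.08, BH-adjusted p = 0.0039 by limma). LysTTT34 went from 220 and 244 RPM to 351 and 326 RPM (log2 fold change 0.55), LysTTT6 from 46.3 and 50.1 RPM to 79.5 and 71.7 RPM (0.64), and LysTTT30 from 19.2 and 19.4 RPM to 29.6 and 28.6 RPM (0.56). The rise passed the threshold in these 4 entries. In all 5 LysTTT entries both wild-type libraries lay above both empty vector libraries, which held for 49.5% of all entries. LysTTT29, at 0.687 and 0.555 RPM in empty vector, had 0.856 and 1.09 RPM with wild-type METTL1 and was not called (BH-adjusted p = 0.39 by limma).

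Neither of the abundant asparagine entries was called. AsnGTT475 had 4999 and 5150 RPM in empty vector and 4752 and 5006 RPM with wild-type METTL1, and the groups overlapped (log2 fold change −0.06, BH-adjusted p = 0.58 by limma). AsnGTT569 was lower in both wild-type libraries, with 3583 and 3704 RPM in empty vector against 3077 and 3394 RPM, a position that 15% of all entries shared. That difference did not pass (log2 fold change −0.17, SE 0.08, BH-adjusted p = 0.11 by limma), although it did when libraries were centred on the families without m7G. With a library left out it ranged from −0.24 to −0.10. The rises were those of AsnGTT683, from 58.0 and 56.8 RPM to 72.3 and 74.6 RPM (log2 fold change 0.35, SE 0.12, BH-adjusted p = 0.023 by limma), and of AsnGTT1068. The latter had 129 and 85.7 RPM in empty vector and 136 and 144 RPM with wild-type METTL1 (log2 fold change 0.41, BH-adjusted p = 0.029 by limma). Neither call held under either centring. With a library left out the log2 fold change ranged from 0.33 to 0.37 for AsnGTT683 and from 0.12 to 0.70 for AsnGTT1068. AsnGTT744, AsnGTT854 and AsnGTT1342 were not called, at log2 fold changes of 0.03, 0.27 and −0.03.

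Because entries of a family can share reads, each family was also taken as the sum of its entries and fitted with all 54 families. The LysTTT sum rose from 2875 ± 15.2 to 3667 ± 79.2 RPM (SD over 2 libraries each; log2 fold change 0.35, SE 0.09, BH-adjusted p = 0.00096 by limma), and the LysCTT sum from 28127 ± 1848 to 33492 ± 678 RPM (0.25, SE 0.09, BH-adjusted p = 0.025 by limma). Of all families 22.2% were called higher and 5.56% lower. The AsnGTT sum was 8916 ± 164 against 8364 ± 415 RPM and was not called (log2 fold change −0.09, BH-adjusted p = 0.52 by limma). By log2 fold change LysTTT ranked 10, LysCTT 13 and AsnGTT 44 among the 54 sums. The LysCTT call was lost in 6 of 10 alternatives, among them the common fit (BH-adjusted p = 0.15 by limma) and centring on all families (0.18 on the log2 scale, BH-adjusted p = 0.19 by limma). The LysTTT call was lost in 2 of 10, those without wild-type library 1 or 2. There the spread came only from the empty vector libraries, and the log2 fold changes were 0.33 and 0.37. The sums changed less than the typical entry, since the 4 leading LysCTT entries had a summed ratio of 1.18 and the other 18 a summed ratio of 1.45.

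**Figure D2:**
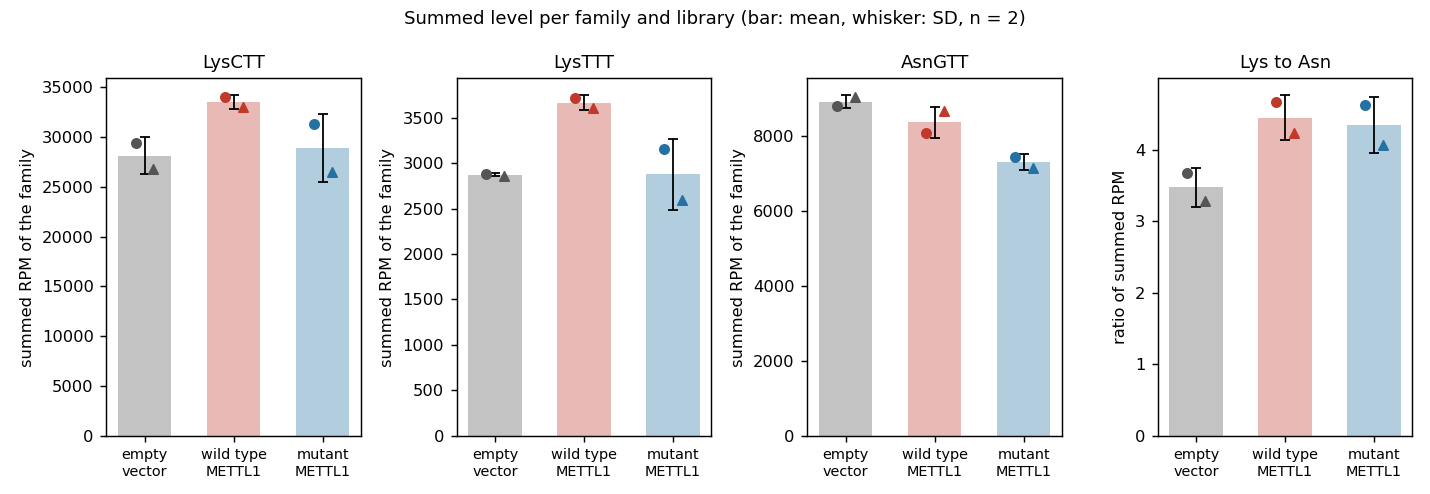
Summed RPM of LysCTT, LysTTT and AsnGTT, and the ratio of lysine to asparagine RPM, by construct. Bars are means, whiskers SD and points the 2 libraries. The LysTTT points for wild-type METTL1 are at 3723 and 3611 RPM, above all others of that family, and the AsnGTT points for mutant METTL1 are at 7447 and 7146 RPM, below all others.

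The second comparison asked the same of mutant METTL1, against the same empty vector libraries. Few entries passed: 2 of 22 LysCTT, 0 of 5 LysTTT and 0 of 7 AsnGTT entries were called higher, and 0 of 34 lower. Of all entries, 7.31% were called higher and 0.997% lower. At an unadjusted limma p under 0.05 there were 7 LysCTT and 1 LysTTT entries, all higher, and 2 AsnGTT entries, AsnGTT569 lower and AsnGTT1068 higher. Of all entries, 13.3% were higher and 2.66% lower at that unadjusted threshold. The median log2 fold change was 0.21 in LysCTT, 0.16 in LysTTT and −0.20 in AsnGTT, against 0.09 over all entries. In 12 of 27 lysine entries and 1 of 7 AsnGTT entries both mutant libraries lay above both controls, as they did for 32.2% of all entries.

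LysCTT12 and LysCTT8 were the entries called. LysCTT12 had 162 and 170 RPM in empty vector and 239 and 211 RPM with mutant METTL1 (log2 fold change 0.43, SE 0.15, BH-adjusted p = 0.047 by limma). LysCTT8 had 144 and 151 RPM against 218 and 185 RPM (log2 fold change 0.45, SE 0.15, BH-adjusted p = 0.044 by limma). In both, mutant libraries lay above both controls. Both calls were lost in 8 of 14 alternatives, among them those without empty vector library 1, without empty vector library 2 and without mutant library 1. LysCTT56, whose values ran parallel to these, just missed the threshold (log2 fold change 0.43, BH-adjusted p = 0.054 by limma). The largest fitted LysCTT changes were those of the scarce LysCTT38 and LysCTT14, at 0.60 and 0.47 on the log2 scale, which were not called (BH-adjusted p = 0.24 by limma for LysCTT38). The lowest were those of LysCTT103, LysCTT117 and LysCTT104, at −0.24, −0.12 and −0.11, also not called.

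The abundant lysine entries were spread widely between the mutant libraries. LysCTT45 had 10363 RPM in mutant library 1 and 8580 RPM in library 2, so the mutant values enclosed those of empty vector (log2 fold change −0.01, SE 0.17). LysTTT28 likewise had 2773 and 2239 RPM (log2 fold change −0.05, SE 0.14). LysCTT104 stood at 391 and 334 RPM against 394 and 388 RPM in empty vector. The LysCTT sum was 28883 ± 3399 RPM and the LysTTT sum 2877 ± 393 RPM (SD, n = 2), with log2 fold changes of 0.03 and −0.01 (BH-adjusted p = 0.90 and 0.97 by limma). The standard errors were 0.15 each, against 0.09 each in the comparison of wild type with empty vector.

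The asparagine sum was lower in both mutant libraries than in both controls, without passing the threshold. AsnGTT475 had 4334 and 4116 RPM with mutant METTL1, below both controls (log2 fold change −0.26, SE 0.15, BH-adjusted p = 0.39 by limma). AsnGTT569 had 2889 and 2813 RPM, also below both controls (log2 fold change −0.35, SE 0.14, BH-adjusted p = 0.15 by limma), and passed in the common fit of all 6 libraries. AsnGTT744 and AsnGTT1342 were the other asparagine entries below both controls, at log2 fold changes of −0.20 and −0.42. These 4 of 7 compare with 15.9% of all entries lying below both controls in both mutant libraries. The AsnGTT sum was 7297 ± 213 RPM against 8916 ± 164 RPM (SD, n = 2; log2 fold change −0.29, SE 0.14, BH-adjusted p = 0.32 by limma). As the mean of the entries' log2 values, which gives scarce entries equal weight, the change was −0.11 (BH-adjusted p = 0.68 by limma). By the log2 fold change of its sum, AsnGTT ranked 50 of 54 families. Of the family sums, 3.7% were called higher and 1.85% lower. In the authors' deposited table for the mutant, 2 of 7 AsnGTT entries had an unadjusted p under 0.05 on the lower side, as had 3.65% of all its entries. On the higher side it had 0 of 22 LysCTT and 0 of 5 LysTTT entries, against 6.98% of all.

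**Figure D3:**
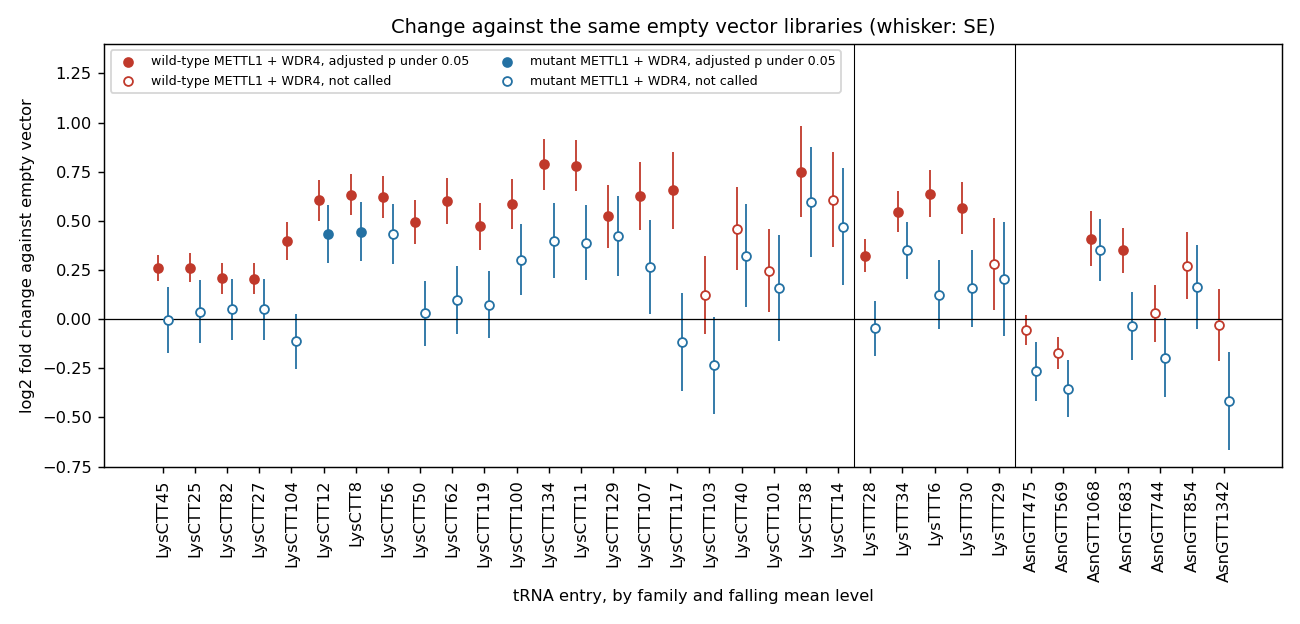
Log2 fold change of the 34 entries against the same empty vector libraries, for wild-type (red) and mutant METTL1 (blue), with whiskers for limma's SE and filled points for an adjusted p under 0.05. Of the 27 lysine entries 22 are filled for wild type and 2 for the mutant, where 30.2% and 7.31% of all entries were called higher. Replicates spread more widely with the mutant (median SD of all entries 0.15, against 0.06 with wild type). The 2 most abundant asparagine entries lie below 0 for both constructs.

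The third comparison set the constructs against each other directly. All 34 entries had a higher mean log2 value with wild-type than with mutant METTL1, as had 62.8% of all entries, though few differences passed: 4 of 22 LysCTT, 2 of 5 LysTTT and 0 of 7 AsnGTT entries were higher and 0 of 34 lower. Of all entries, 11.3% were called higher and 3.65% lower. When libraries were centred on the families without m7G, AsnGTT1068, LysCTT129, LysCTT101 and LysTTT29 turned to small negative differences. The median log2 difference was 0.25 in LysCTT, 0.37 in LysTTT and 0.21 in AsnGTT, against 0.10 over all entries. In 28 of the 34 both wild-type libraries lay above both mutant libraries, as they did for 43.2% of all entries.

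LysCTT104, the fifth LysCTT entry by level, had 516 and 514 RPM with wild-type and 391 and 334 RPM with mutant METTL1 (log2 difference 0.51, SE 0.13, BH-adjusted p = 0.0027 by limma). LysTTT28 had 3263 and 3183 RPM against 2773 and 2239 RPM (log2 difference 0.37, SE 0.12, BH-adjusted p = 0.022 by limma). LysTTT6 had 79.5 and 71.7 RPM against 47.9 and 57.8 RPM (log2 difference 0.51, SE 0.18, BH-adjusted p = 0.028 by limma). LysCTT62 and LysCTT50 were also called (log2 differences 0.50 and 0.46), as was LysCTT117 at 6.94 and 5.65 against 3.23 and 3.29 RPM (0.77, BH-adjusted p = 0.0049 by limma). The smallest LysCTT differences were those of LysCTT101, LysCTT129 and LysCTT40, at 0.09, 0.10 and 0.14 on the log2 scale.

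Both wild-type libraries lay above both mutant libraries in these 6 entries, as in 28 of the 34 and in 43.2% of all entries. Their calls depended on the libraries used: 0 of the 34 entries were called without wild-type library 1 or without library 2, 18 without mutant library 1 and 10 without mutant library 2. In the same fits 0.664%, 0.332%, 26.2% and 28.9% of all entries were called higher. For the sums, the log2 difference was 0.22 for LysCTT (BH-adjusted p = 0.24 by limma), 0.36 for LysTTT (BH-adjusted p = 0.059 by limma) and 0.20 for AsnGTT (BH-adjusted p = 0.25 by limma). With a library left out these ranged from 0.10 to 0.34 for LysCTT, 0.22 to 0.50 for LysTTT and 0.15 to 0.25 for AsnGTT. Of all sums 3.7% were called higher and 1.85% lower.

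**Figure D4:**
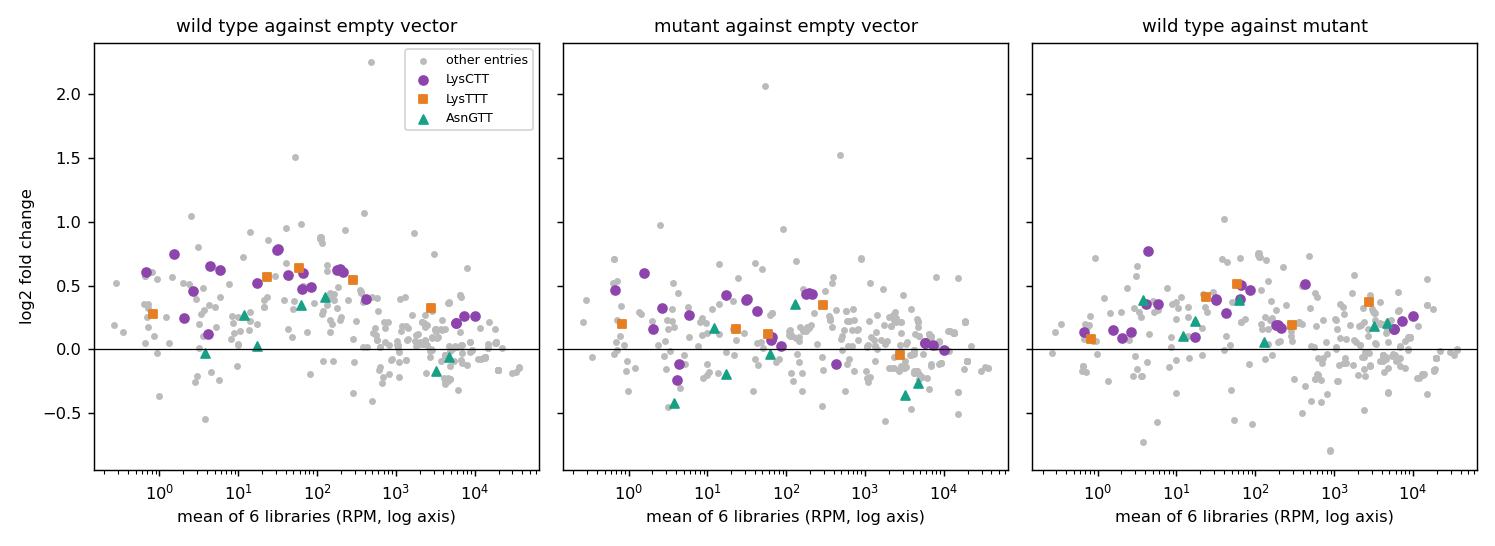
Log2 fold change in each comparison against the mean abundance over 6 libraries (RPM, log axis) for all entries, with LysCTT, LysTTT and AsnGTT coloured and the other entries in grey. With wild-type METTL1 against empty vector every lysine point lies above 0 in RPM as deposited (LysCTT103 turns negative when libraries are centred on the families without m7G), while the abundant AsnGTT points lie just below it.

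Lysine and asparagine, which share the codon box, were then compared with each other within each library. The ratio of lysine to asparagine RPM was 3.67 and 3.29 in empty vector, 4.67 and 4.23 with wild-type METTL1, and 4.62 and 4.07 with mutant METTL1. Both METTL1 constructs lay above the empty vector libraries that they share as controls. The log2 difference was 0.36 for wild type and 0.32 for the mutant (two-sided exact permutation p = 0.333 each, n = 2 against 2, the smallest this design can give). The constructs themselves differed by 0.04 on the log2 scale (two-sided exact permutation p = 0.667, n = 2 against 2), a difference that turned negative without wild-type library 1 or mutant library 2. The lysine sum was 37159 ± 757 RPM with wild-type and 31761 ± 3792 RPM with mutant METTL1, against 31003 ± 1863 RPM in empty vector, while the asparagine sum was lowest with the mutant. These ratios rest on the few entries that hold most reads. With the median entry of each amino acid in place of the sum, the log2 difference was 0.29 for wild type, 0.12 for the mutant (two-sided exact permutation p = 0.667, n = 2 against 2) and 0.17 between the constructs. Written per base, the ratios would be 1.01 times higher.

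Between the lysine anticodons, the ratio of LysTTT to LysCTT RPM was 0.0980 and 0.107 in empty vector, 0.1096 and 0.1094 with wild-type METTL1, and 0.101 and 0.0982 with the mutant. The wild-type libraries were the highest by summed RPM. The log2 differences were 0.10 for wild type against empty vector, −0.04 for mutant against empty vector and 0.14 for wild type against mutant (two-sided exact permutation p = 0.333, 1.0 and 0.333, n = 2 against 2). The smallest p this design allows is again 0.333, so none of these could pass. Without empty vector library 1 the difference for wild type was 0.036, and without library 2 it was 0.16. With medians of the entries the wild-type libraries no longer stood apart (0.09 against empty vector, two-sided exact permutation p = 0.667, and 0.11 against mutant, p = 1.0, n = 2 against 2).

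Some LysCTT entries also ran parallel to each other. Among the 25 members with a mean of at least 10 RPM there are 300 pairs. In 8 pairs, or 2.67%, the SD of the log ratio over the 6 libraries was below 3%. Of the pairs of all entries at that level, 0.687% were as close. Those pairs also join entries of different families, and pairs within other families were not counted apart. All 8 pairs were LysCTT with LysCTT. They join LysCTT82 with LysCTT27, LysCTT134 with LysCTT11, LysCTT12 with LysCTT8 and LysCTT56, and LysCTT25 with LysCTT45, LysCTT82 and LysCTT27. The LysCTT8 values also lay within 5% of those of a glutamate entry, GluCTC48, in every library. The treatment of reads that fit several genes is not given in the sources used, so parallel entries may not be separate measurements.

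The families next to these in m7G class or wobble modification were described in the same way. Of the 142 entries in the 17 other families with m7G, 41 rose and 15 fell with wild-type METTL1 (median log2 fold change 0.15), and 9 rose and 1 fell with the mutant (0.07). In the 26 families without m7G, 25 of 105 entries rose and 6 fell with wild type (0.11), and 8 rose and 2 fell with the mutant (0.10). The other queuosine families, AspGTC, HisGTG and TyrGTA, had 6 of 14 entries higher with wild type (0.10) and 4 of 14 with the mutant (0.07), with 0 lower in each. GlnTTG and GluTTC, which share the thiolated wobble uridine with LysTTT, had 2 of 10 entries higher with each construct (0.14 and 0.13), and 0 lower. The lysine count with wild type was 22 of 27, and no test was run between lists.

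For both constructs against empty vector, fewer lysine entries were called once the libraries were centred. What lowered the counts was not tested. For wild type against empty vector, centring libraries on the median level of the families without m7G moved the all-entry median log2 change by −0.21. The entries of those families had a smaller median change of their own, 0.11 before centring, so the centring did not set them to no change. After it, 7 LysCTT, 1 LysTTT and 0 AsnGTT entries passed as higher, with 9.63% of all entries. The medians relative to that centring were 0.35 for LysCTT, 0.34 for LysTTT and −0.18 for AsnGTT. Centring on all entries shifted the median by −0.02 and left 10 LysCTT, 4 LysTTT and 0 AsnGTT entries higher, with 16.9% of all entries. For mutant against empty vector 0 lysine entries passed as higher under either centring, where 2.33% and 4.32% of all entries did.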

How the data were processed

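The 2 deposited tables, 1 per METTL1 construct, list identical entries and repeat identical empty vector columns. The authors gave abundance as RPM, with the fold change (ratio of means), its log2 value, an unadjusted p-value and the −log10 of that p-value per the file headers. Trim Galore, Bowtie, bedtools and build mm10 were used, per the submitters' processing notes, with no versions given.

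RPM was transformed to log2(RPM + 1), unfiltered, a scale that understates the change of low entries. Each comparison was fitted on its own 4 libraries in limma 3.58.1 (R 4.3.3) with a variance trend, adjusting p-values over all entries, or over 54 families for sums. The code was tested on simulated data for the size of the log2 fold change, with no limit set on false calls. Planned count tests were not run, since the unit is RPM. Implied reads, whole within 0.01 reads for every value, give depth only.

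The members, lists and tests were chosen with earlier results of these data known. Named were all AsnGTT and LysTTT entries and, of LysCTT, the 5 most abundant and the 3 largest and 3 lowest changes per comparison. LysCTT12, LysCTT50, LysCTT56, LysCTT100, LysCTT119 and GluCTC48 were named after their values were seen, as were the divisions at 10 and 1000 RPM. Alternatives were pseudocounts of 0.5 and 10, minimum means of 10 and 100 RPM, no trend, a common fit, a replicate block, centring, summed near-identical entries and leaving out each library.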

Additional observations from a re-analysis of the deposited data

How the results depend on the processing

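With wild-type METTL1 against empty vector, 24 of the 34 entries were higher. The count was 9 with a minimum mean of 100 RPM, where fewer entries were tested, 8 with libraries centred on the families without m7G, 14 with centring on all entries, and 13 to 26 with a library left out. The 9 were of 13 entries tested at the minimum mean of 100 RPM, where LysCTT82 and LysCTT27 lost their calls. Of all entries, 30.2% were called higher as reported, 9.63% with centring on the families without m7G and 16.9% with centring on all entries. Among the 34, the count of lower entries, 0 as reported, was 1 with centring on the families without m7G. The LysCTT sum lost its call without the variance trend (0.25), in the common fit (0.25) and with centring on all families (0.18), with 0.19 to 0.32 when a library was left out. The LysTTT sum ranged from 0.33 to 0.37 with a library left out. The AsnGTT sum turned from −0.09 to 0.11 when the mean of the entries' log2 values was taken in place of the sum.

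For mutant METTL1 against empty vector, the 2 higher entries became 0 with a pseudocount of 10, 1 without the trend, 0 with replicate number as a block, 0 under both centrings, and 0 to 3 with a library left out. Of all entries, 7.31% were called higher as reported, 2.33% with centring on the families without m7G and 4.32% with centring on all entries. Among the 34, the 0 lower entries became 1 in the common fit. Whether replicate numbers pair the libraries cannot be settled from 2 libraries per construct. The correlation of replicate deviations over 243 entries was 0.16 for empty vector with wild type. It was −0.28 for empty vector with mutant and −0.05 for wild type with mutant. With the pairing of empty vector and mutant crossed, chosen after seeing the data, 0 entries were higher and 1 lower. The LysCTT sum turned to −0.038 with centring on all families and ranged from −0.086 to 0.16 with a library left out. The LysTTT sum turned to 0.16 as a mean of log2 values and ranged from −0.15 to 0.13.

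For wild-type against mutant METTL1, the 6 higher entries became 2 with a minimum mean of 100 RPM, 2 with replicate number as a block, 1 with centring on the families without m7G, and 0 to 18 with a library left out. The minimum mean of 100 RPM left 13 of the 34 entries in the test. Of the 6 called entries only LysCTT104 and LysTTT28 reach that mean, and both kept their call there. As means of log2 values the LysCTT and LysTTT differences passed, at 0.29 and 0.31. The sums ranged from 0.10 to 0.34 and from 0.22 to 0.50 with a library left out. With a library left out, the difference of the lysine to asparagine ratio between the constructs ranged from −0.057 to 0.13, and that of LysTTT to LysCTT from 0.036 to 0.16 for wild type and from −0.10 to 0.021 for the mutant, each against empty vector. With medians of the entries the lysine to asparagine differences were 0.29 for wild type, 0.12 for the mutant and 0.17 between them.

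Single entries that changed sign were among those not called. Under centring on the families without m7G, AsnGTT744 (−0.18) and LysCTT103 (−0.085) did so for wild type, LysCTT25 (−0.066), LysCTT82 (−0.054), LysCTT27 (−0.053), LysCTT50 (−0.073), LysCTT62 (−0.0056) and LysCTT119 (−0.029) for the mutant, and AsnGTT1068 (−0.047), LysCTT129 (−0.0033), LysCTT101 (−0.014) and LysTTT29 (−0.025) for wild type against mutant. Under centring on all entries LysCTT25 (−0.0076) and LysCTT50 (−0.015) did so for the mutant. With a library left out the ranges for wild type were −0.085 to 0.14 for AsnGTT744, −0.064 to 0.0032 for AsnGTT1342 and −0.11 to 0.35 for LysCTT103. For the mutant they were −0.071 to 0.0020 for AsnGTT683, −0.032 to 0.36 for AsnGTT854, −0.14 to 0.13 for LysCTT45, −0.094 to 0.17 for LysCTT25, −0.056 to 0.15 for LysCTT82, −0.056 to 0.15 for LysCTT27, −0.23 to 0.0015 for LysCTT104, −0.023 to 0.17 for LysCTT119, −0.34 to 0.10 for LysCTT117, −0.48 to 0.0050 for LysCTT103, −0.13 to 0.45 for LysCTT101, −0.20 to 0.11 for LysTTT28, −0.0085 to 0.26 for LysTTT6 and −0.098 to 0.50 for LysTTT29. For wild type against mutant they were −0.090 to 0.30 for AsnGTT854, −0.021 to 0.30 for LysCTT40, −0.20 to 0.38 for LysCTT101, −0.0056 to 0.28 for LysCTT14 and −0.22 to 0.38 for LysTTT29. The cause of these changes was not tested. The planned edgeR and DESeq2 tests were not run.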
